A study of Homo sapiens with 3 samples.

Results

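Of the 27024 genes counted in wild-type 22Rv1 cells, 10 genes of the SOX family were examined, namely SOX2, SOX4, SOX5, SOX6, SOX8, SOX9, SOX11, SOX12, SOX13 and SOX15. They were chosen by name, as rows whose Ensembl identifier maps to these symbols, and each had 1 row of its own that was not merged with a neighbour.

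SOX proteins are transcription factors that bind the minor groove of DNA through an HMG box and bend it. They usually act with a partner factor bound beside them, and their recognition sequence is short and similar across the family. The family is divided into subgroups by the sequence of the HMG box. SoxB1 (SOX2) maintains stem and progenitor cells, SoxC (SOX4, SOX11 and SOX12) acts in neuronal and mesenchymal progenitors, SoxD (SOX5, SOX6 and SOX13) lacks a transactivation domain of its own and forms dimers through a coiled coil, SoxE (SOX8, SOX9 and SOX10) directs cartilage, gonad and neural crest fates, and SoxG consists of SOX15. In the prostate, SOX9 is known for its role in the growth of epithelial buds, and SOX2 is linked in prostate cancer to neuroendocrine lineage change. SOX4 is the member that the study examined as a factor at a prostate cancer risk enhancer.

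The 22Rv1 line, an established line of human prostate carcinoma, carries the androgen receptor. Cells from ATCC were grown in RPMI1640 with serum and antibiotics, and the 3 libraries, WT replicates 1, 2 and 3, are wild type, with the enhancer under study neither deleted nor mutated. The methods describe control clones and the results biological replicates, and the labels do not say whether the 3 samples are separate clones or cultures. An SD measures the spread between these 3 samples, which also takes in technical differences. Only this group was analysed here, so no comparison between genotypes was made.

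Values are normalized counts, that is reads per gene divided by 1 size factor per library, which was 1.27, 1.18 and 1.27 in replicates 1, 2 and 3. Dividing by gene length in kilobases gives a level that can be compared between genes. Whole reads were recovered from every value. After repeated rows were merged they summed to between 35675670 and 38629080 per library. The labelled cell type carried its markers. All 9 of 9 markers of prostate luminal epithelium were expressed, from KLK3 at 341 ± 32.9 to KRT8 at 25161 ± 789 normalized counts (SD, n = 3), and their summed level lay between 84344 and 85707. The 3 basal markers TP63, KRT5 and KRT14 had 0 reads in every library, as did the endothelial marker CDH5 and the T-cell marker CD3E. Of the 4 fibroblast markers 2 were expressed, COL1A1 at 261 ± 17.2 and LUM at 161 ± 18.3 normalized counts, while COL1A2 had 1 read in 1 library, and the summed level of the 4 was 408 to 443. CD68 was the expressed 1 of 3 leukocyte markers, whose summed level was 59.8 to 80.6, and PMEL the expressed 1 of 3 glial and melanocyte markers, whose summed level was 53.7 to 83.4. The part of other cells in any SOX level was not tested.

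The HMG box is the sequence that defines the family, and the start of its coding sequence shows how close the SoxC and SoxE paralogs described here are. Each line gives 60 bases of coding sequence from the conserved start of the box, 5′ to 3′ on the strand of the gene, from the GRCh37 genome, with capitals where a base differs from SOX4.
SOX4: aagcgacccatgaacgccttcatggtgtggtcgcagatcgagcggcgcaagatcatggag
SOX11: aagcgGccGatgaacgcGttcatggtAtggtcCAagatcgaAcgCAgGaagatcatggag
SOX12: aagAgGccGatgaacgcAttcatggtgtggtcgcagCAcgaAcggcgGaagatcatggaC
SOX9: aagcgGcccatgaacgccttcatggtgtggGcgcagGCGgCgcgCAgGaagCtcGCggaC
SOX8: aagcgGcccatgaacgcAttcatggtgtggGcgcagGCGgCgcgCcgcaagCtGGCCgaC

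These windows lie on the plus strand at chr6:21594943-21595002 for SOX4, chr2:5833001-5833060 for SOX11, chr20:306689-306748 for SOX12, chr17:70117848-70117907 for SOX9 and chr16:1032229-1032288 for SOX8, each within 1 coding exon. SOX11 differed from SOX4 at 10 of the 60 bases, SOX12 at 9, SOX9 at 13 and SOX8 at 14. The 5 other members differed at 13 (SOX13), 14 (SOX2), 17 (SOX5), 17 (SOX6) and 19 (SOX15) bases. Over a stretch of 210 bases from the same start, identity to SOX4 was 88.6% for SOX11 and 85.7% for SOX12 and ran from 59.0% to 75.2% for the other members. The closest pair was SOX8 and SOX9, at 91.9%, and the 3 SoxD genes were 80.0% to 84.3% identical to each other. The identity of SOX2 was highest with SOX15, at 77.6%. No pair of canonical transcripts shared an unbroken run of more than 37 bases, the longest being that of SOX8 and SOX9, while SOX11 and SOX12 shared 35 bases and SOX4 and SOX12 shared 33. The sequenced reads are longer than these runs, and how the counting treated reads with more than 1 match is not given in the sources used here.

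**Figure D1:**
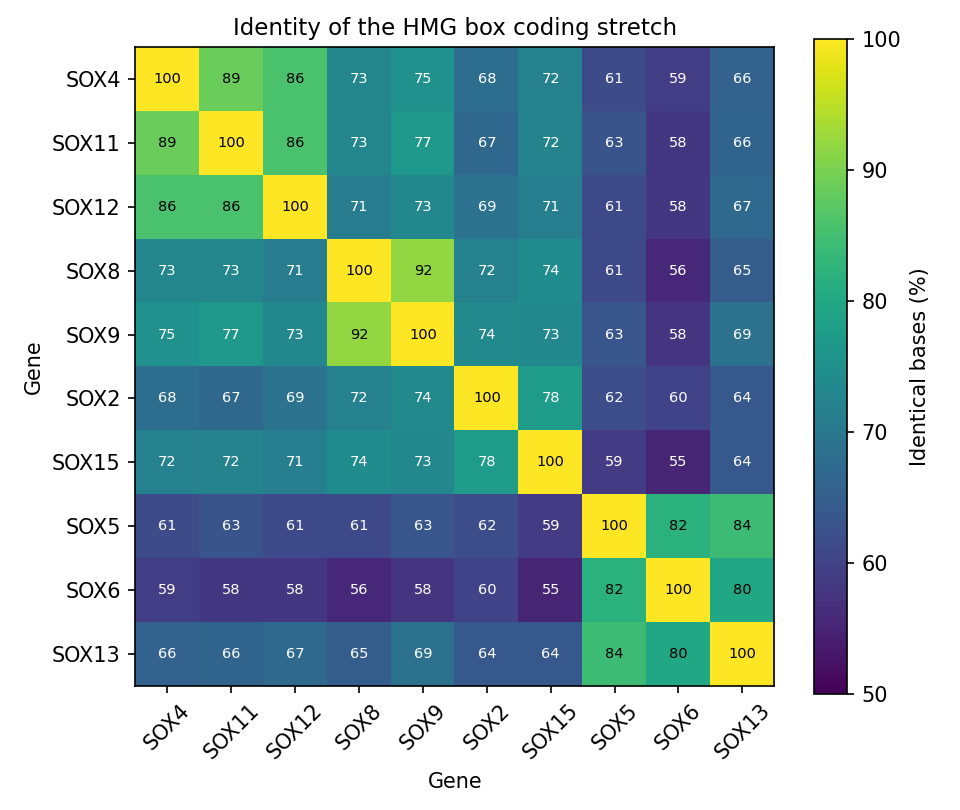
Percent of identical bases between the members over 210 bases of HMG box coding sequence, with genes on both axes grouped by subgroup and colour giving the percent. The SoxC, SoxD and SoxE genes form blocks of higher identity, with SOX8 and SOX9 at 91.9%.

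A gene was called expressed where each of the 3 libraries reached 1 CPM, the unit of reads scaled to a common library total. Of the 10 SOX genes 6 were expressed, SOX4, SOX9, SOX13, SOX12, SOX5 and SOX15, while SOX6, SOX11, SOX2 and SOX8 stayed below 1 CPM in each library. The same limit was passed by 12205 of 19140 protein-coding genes, or 63.8%. At a limit of 2 CPM SOX15 was lost, which left 5 members and 60.6% of protein-coding genes, and at 0.5 CPM SOX6 was added, which gave 7 members and 66.4%. The median of the member means was 220 normalized counts against 352 over all protein-coding genes. Of the 9 other SOX genes with a row 1 was expressed. In the plot of the level by library, the expressed members spread from 58.4 to 4063 normalized counts.

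**Figure D2:**
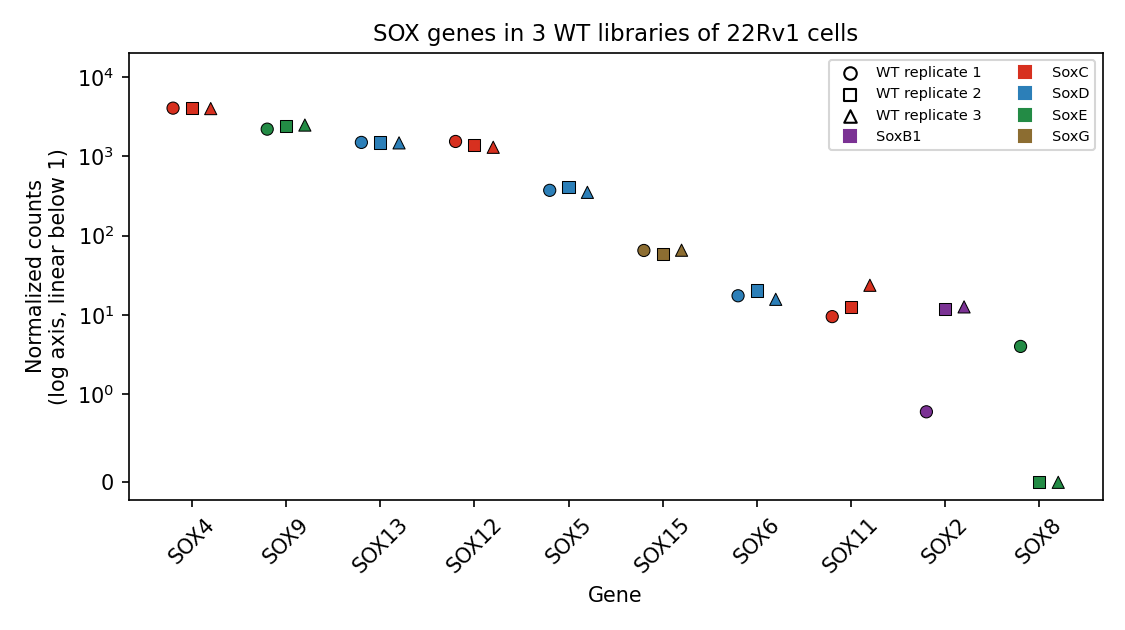
Normalized counts of each SOX gene (vertical axis, logarithmic above 1 and linear below) in WT replicates 1, 2 and 3, with 1 symbol per library and colour for the subgroup. The symbols of SOX4 and SOX13 overlie each other, SOX2 is lower in replicate 1 than in the other libraries, and SOX8 is above 0 in replicate 1 alone.

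SOX4, the most abundant member in these cells, is a single-exon SoxC gene on the plus strand of chromosome 6 (21593982 to 21598850, GRCh37) and a known mediator of responses to TGF-beta. Its level was 4036.4, 4062.8 and 3984.4 normalized counts in replicates 1, 2 and 3, from 5109, 4801 and 5061 reads. The 3 libraries lay close together, at 4028 ± 39.9 (SD, n = 3), with a spread of 0.990% of the mean where counting error alone gives 1.42%. Per kilobase of transcript the level was 827 ± 8.19, above that of 75.5% of the 12181 expressed protein-coding genes with a canonical length. Its exon shares 168 bases with a long noncoding RNA on the opposite strand, not analysed here, and the strand setting of the counting is not stated, so reads from that stretch cannot be assigned to 1 of them.

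SOX12, a SoxC gene of weaker transactivation than its paralogs, had 1534.3, 1372.6 and 1295.8 normalized counts. Replicate 1 was the highest, and the mean was 1401 ± 122 normalized counts or 300 ± 26.1 per kilobase (SD, n = 3). SOX11, the SoxC gene of neural progenitors and of mantle cell lymphoma, was low, with 12, 15 and 30 reads or 9.5, 12.7 and 23.6 normalized counts. Replicate 3 was the highest, and the level per kilobase was 1.70 ± 0.821. Its exon shares 74 bases with a long noncoding RNA on the same strand, not analysed here. SOX4, SOX11 and SOX12 have a single exon, so reads of genomic DNA cannot be told apart from reads of their RNA.

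Within SoxC, SOX4 exceeded SOX12 by 2.52, 2.84 and 2.95 times per kilobase in replicates 1, 2 and 3, a mean ratio of 2.77 ± 0.221 (SD, n = 3). SOX4 exceeded SOX11 by 786, 591 and 312 times, and the summed reads of 14971 and 57 give a ratio of 486 (95% exact interval 375 to 641, which covers counting error only). The order SOX4, SOX12, SOX11 was the same in the 3 libraries.

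Among the SoxE genes, SOX9 was the second highest member per kilobase and SOX8 the lowest. SOX9, on the plus strand of chromosome 17 (70117161 to 70122557, 3 exons), had 2193.2, 2414.3 and 2469.7 normalized counts from 2776, 2853 and 3137 reads. Replicate 1 was the lowest, and the mean was 2359 ± 146 normalized counts or 600 ± 37.2 per kilobase (SD, n = 3), above 67.3% of expressed protein-coding genes. SOX8, whose HMG box is closest to that of SOX9, had 5 reads in replicate 1 and 0 reads in replicates 2 and 3. A count of 0 allows up to 3 reads in a library, or about 2.42 normalized counts, so SOX8 was not detectable at this depth in 2 libraries. From the summed reads, 8766 for SOX9 and 5 for SOX8, the ratio per kilobase was 1377 (95% exact interval 590 to 4241). SOX9-AS1, an antisense gene whose span overlaps that of SOX9 without sharing exon bases, had 148, 113 and 129 reads.

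SOX13, the SoxD gene also known as an autoantigen of type 1 diabetes, was the evenest member, with 1492.4, 1489.4 and 1472.2 normalized counts. Its mean of 1485 ± 10.9 (SD, n = 3) had a spread of 0.734%, against 2.33% from counting alone, and corresponds to 364 ± 2.67 per kilobase. SOX5, which acts with SOX6 and SOX9 in cartilage, had 371.3, 407.9 and 350.3 normalized counts, or 53.2 ± 4.12 per kilobase. Replicate 2 was the highest for SOX5, with a spread of 7.74% against 4.63% from counting. SOX6, the other SoxD partner of SOX9 in cartilage and a repressor in red cells and muscle, was low in every library, with 22, 24 and 20 reads or 17.4, 20.3 and 15.7 normalized counts. The ranges of the 3 SoxD genes did not overlap, and SOX13 was 6.87 ± 0.487 times as high as SOX5 and 192 ± 23.5 times as high as SOX6 per kilobase. SOX5 was 27.9 ± 1.46 times as high as SOX6. These ratios depend on the length used: over the union of all annotated exons SOX13 was 6.02 times as high as SOX5 and SOX5 37.8 times as high as SOX6. No SoxD exon shares bases with another annotated gene.

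SOX15, a factor of muscle progenitors and germ cells, passed the limit of 1 CPM, at 2.14, 1.93 and 2.15 CPM from 82, 69 and 83 reads. These values lay close to the alternative limit of 2 CPM. The 3 libraries were close, at 62.8 ± 3.85 normalized counts or 47.6 ± 2.91 per kilobase (SD, n = 3). Its exons share 35 bases with MPDU1 on the opposite strand, an endoplasmic reticulum gene with 4114 to 4756 reads, and reads from those bases cannot be assigned without strand.

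SOX2, the SoxB1 factor of pluripotent and neural stem cells, had 1, 14 and 16 reads in replicates 1, 2 and 3, or 0.8, 11.8 and 12.6 normalized counts. Replicate 1 was apart from the other libraries, with a deviation from the mean of -3.40 on the log2 scale against 0.51 and 0.59. The level per kilobase was 3.34 ± 2.62 (SD, n = 3), and SOX4 was 249 times as high from the summed reads (95% exact interval 175 to 367). SOX2 has a single exon and lies within SOX2-OT, a long noncoding RNA of the same strand that shares no exon bases with it. SOX2-OT had 23, 14 and 13 reads, with replicate 1 the highest.

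Ordered by level per kilobase, the family ran SOX4, SOX9, SOX13, SOX12, SOX5, SOX15, SOX2, SOX6, SOX11 and SOX8. For 6 of the 9 neighbouring pairs the order held in the 3 libraries. SOX4 was 1.38 ± 0.0939 times as high as SOX9, and the smallest ratio of SOX13 to SOX12 in a library was 1.12. The largest step between expressed neighbours was that from SOX12 to SOX5, a ratio of means of 5.63. SOX5 was above SOX15 in each library by a ratio of means of 1.12. In replicate 3, however, the lowest SOX5 and the highest SOX15 value were both 49.5 per kilobase, a ratio of 1.00. With a counting error of 11.3% for SOX15, the order of this pair was not separable in that library. Neighbours among SOX2, SOX6, SOX11 and SOX8 were not separable, since each of these 3 neighbouring pairs held its order in 2 of 3 libraries. SOX6 and SOX8, which are not neighbours, kept their order in each library. With union exon lengths, however, SOX8 was above SOX6 in replicate 1. With union exon lengths SOX12 (300) ranked above SOX13 (200), SOX15 (42.9) above SOX5 (33.4) and SOX11 (1.70) above SOX6 (0.886), so those 3 orders rest on the transcript taken.

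**Figure D3:**
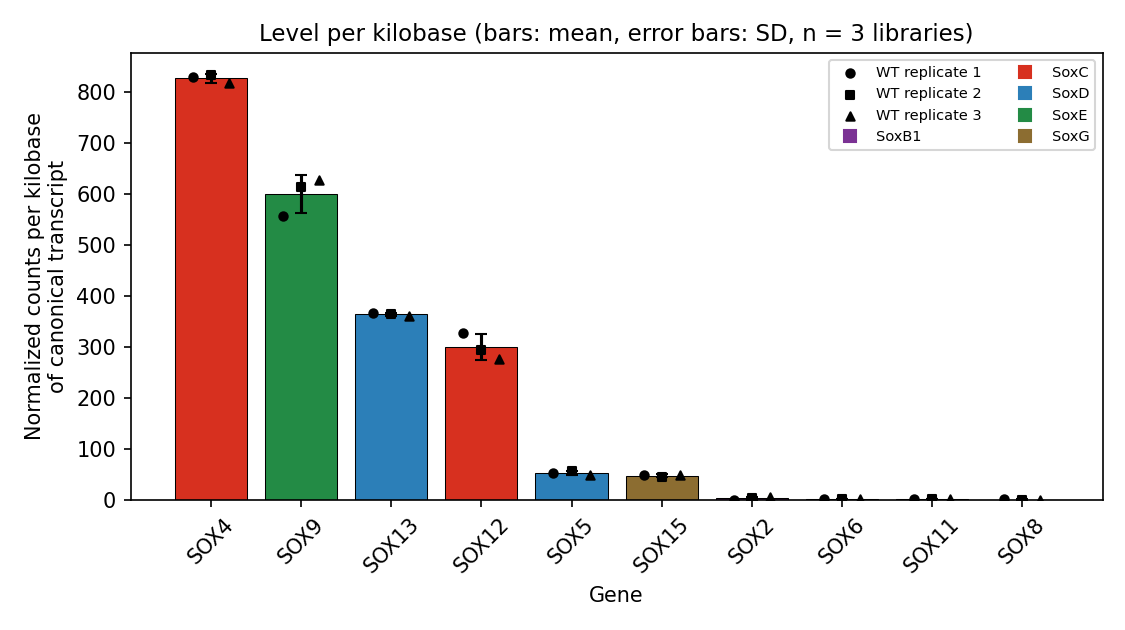
Normalized counts per kilobase of canonical transcript for each SOX gene in order of the mean, with bars for the mean, error bars for the SD and points for the 3 libraries. SOX4 at 827, SOX9 at 600, SOX13 at 364 and SOX12 at 300 stand above SOX5 at 53.2 and SOX15 at 47.6, and the last 4 genes lie on the axis at this scale.

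Summed per kilobase, SoxC held 53.0%, 50.9% and 50.1% of the level of the 10 members in replicates 1, 2 and 3, a mean of 51.3% ± 1.48 (SD, n = 3). SoxE, which here was SOX9 almost entirely, held 25.6%, 27.7% and 28.6%, and SoxD held 19.1% ± 0.230. SoxG held 2.16% ± 0.147 and SoxB1 0.152% ± 0.119. SOX4 by itself held 37.9%, 37.6% and 37.3%. These shares add up to a whole and are not independent of each other.

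Whether the reads of a gene differed between the 3 WT libraries beyond counting error was tested with a chi-square test of homogeneity over the 14646 genes that reached an average of 10 reads, and p was adjusted by Benjamini-Hochberg. By this test 41.9% of genes differed between the libraries, so counting error is a narrow standard for these samples. Of the 9 members tested 4 differed, a share near that of all genes, and SOX8 was under the minimum. SOX12 had an adjusted p of 1.26e-05 and deviated from its mean by 0.13, -0.03 and -0.12 on the log2 scale in replicates 1, 2 and 3. SOX9 had an adjusted p of 1.50e-04 with deviations of -0.10, 0.04 and 0.06, so replicate 1 was apart in the opposite direction. SOX2 had an adjusted p of 0.00573 on 31 reads in all, and SOX11 an adjusted p of 0.0307 on 57 reads. For SOX4, SOX5, SOX6, SOX13 and SOX15 the adjusted p lay between 0.108 and 0.881, which does not show that their levels were equal.

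Those 4 calls were not made under 2 wider standards, both set from the spread of genes in these same 3 libraries. So few genes passed either standard that 0 of 9 members says little about the members. With the chi-square scaled by the genes of 10 to 50 reads, 3.47% of genes and 0 members differed, with SOX9 and SOX12 at an unadjusted p under 0.05. With the trended dispersion of edgeR, 0.416% of genes and 0 members differed, with SOX2 alone at an unadjusted p under 0.05. The chi-square calls also depended on the libraries included. Without replicate 1, 27.0% of genes and 0 of 9 members differed with Benjamini-Hochberg adjustment, with SOX5 and SOX11 at an unadjusted p under 0.05. Without replicate 2, 22.7% of genes and 3 of the 8 members tested differed, SOX9, SOX11 and SOX12. Without replicate 3, 23.5% of genes and 2 of 8 differed, SOX9 and SOX12, while SOX11 had an adjusted p of 0.629. The spread of SOX12 (8.69%) and SOX9 (6.20%) exceeded the median of 4.66% over genes of 500 to 3000 reads, and that of SOX13 (0.734%) was below it. SOX4, at 0.990%, was below the 3.07% of genes of 3000 to 10000 reads. SOX11, at 48.4%, and SOX2, at 78.5%, were above the 32.3% of genes of 10 to 50 reads, and SOX6, at 13.1%, was below it. SOX5, at 7.74%, and SOX15, at 6.12%, were below the 11.2% of genes of 50 to 500 reads.

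**Figure D4:**
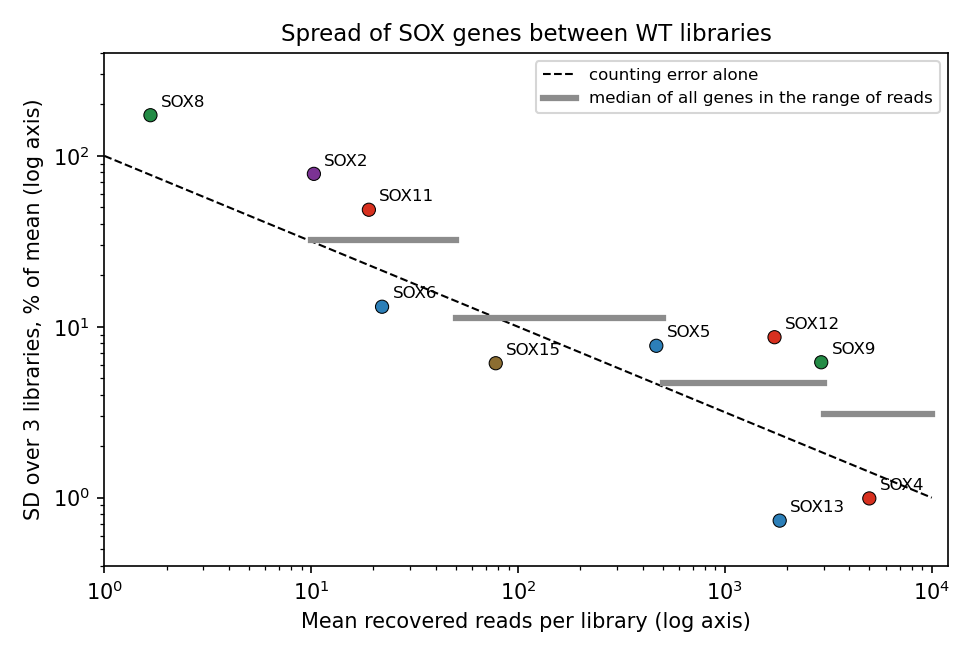
SD over the 3 libraries as a percent of the mean (vertical axis, logarithmic) against the mean reads of each SOX gene (horizontal axis, logarithmic), with a dashed line for counting error alone and grey bars for the median over all genes in each range of reads. SOX2, SOX9, SOX11 and SOX12 lie above both. SOX4, SOX6, SOX13 and SOX15 lie below the counting line, SOX4 at 0.990% and SOX13 at 0.734%.

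The other SOX genes were low or at 0. SOX21, a SoxB2 repressor, was the expressed 1 of 9, with 47.4, 33.8 and 54.3 normalized counts. SOX18 and SOX7, SoxF factors of endothelium, had 25.5 ± 10.5 and 14.7 ± 3.61 normalized counts (SD, n = 3), and SOX17, the SoxF factor of endoderm, had 0 reads in each library. SOX10, the SoxE factor of neural crest, glia and melanocytes, had 16, 13 and 4 reads. SOX1, SOX3 and SOX14, SoxB factors of neural tissue, had 0 reads in each library, and SOX30 had 1, 1 and 0.

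SOX factors act with partners and on known targets, and these were taken as lists of textbook genes, each listed with its count expressed against 63.8% of protein-coding genes. Of 9 POU factors 5 were expressed. The highest were POU6F1 at 2426 ± 204 and POU2F1, the ubiquitous octamer-binding factor, at 2103 ± 215 normalized counts (SD, n = 3). POU3F2, the neural partner of SOX2 and SOX11, had 209.4, 261.5 and 224.4, and POU5F1, the partner of SOX2 in pluripotent cells, 108 ± 9.54. POU3F4 had 0 reads in each library. Of the 5 pluripotency partners of SOX2, POU5F1 was the expressed one, SALL4 had 25.1 ± 7.89 and NANOG 1.93 ± 2.12 normalized counts, and LIN28B was at 0 in each library. POU5F1 has near-identical retrocopies, so its value is uncertain.

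All 5 genes of the TCF/LEF and beta-catenin list were expressed. Several SOX proteins bind beta-catenin or compete with TCF/LEF factors, which share the HMG box. CTNNB1, which encodes beta-catenin, had 13676 ± 305 normalized counts, LEF1 523 ± 30.2, TCF7L2 223 ± 23.4, TCF7 143 ± 32.1 and TCF7L1 95.2 ± 13.9 (SD, n = 3). Per kilobase, SOX4 at 827 and SOX9 at 600 stood above LEF1 at 146 and the other 3 TCF/LEF genes at 31.9 to 54.8.

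Of the 5 genes known as SoxC targets in neurons 4 were expressed. STMN1, which destabilizes microtubules, had 16628 ± 409 and TUBB3, the neuronal beta-tubulin, 3609.8, 3457.8 and 3667.1 normalized counts. MAP2 and TEAD2 had 2411 ± 161 and 1836 ± 82.8, while DCX, a marker of migrating neurons, had 1 read in replicate 1 and 0 in the others. STMN1 is also a gene of dividing cells, and levels in 1 group say nothing of which factor sets them.

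Of the 11 cartilage genes that SOX9 drives with SOX5 and SOX6, 2 were expressed. COL9A3 had 1058.7, 996.9 and 928.2 normalized counts and COL9A2 62.2 ± 11.8. COL2A1, the main cartilage collagen, had 17, 10 and 27 reads, ACAN, the cartilage proteoglycan, had 0, 5 and 4, and COL11A1 and HAPLN1 had 0 in each library. Of the 5 glial and melanocyte genes of SOX10 2 were expressed, ERBB3, a receptor common in epithelia, at 7219 ± 251 and MITF, the melanocyte regulator that other cells also transcribe, at 279 ± 16.6 normalized counts. S100B had 0 reads in each library.

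SOX genes can themselves hold SOX recognition sequences, so the promoters of the members were searched for AACAAT, a core SOX motif, on both strands (ATTGTT on the other). In RefSeq promoters on GRCh38, 300 bases from 250 before to 50 after a start, 10.1% of 35116 promoters held it. Of the 10 members 6 had an entry, SOX2, SOX4, SOX5, SOX6, SOX12 and SOX13, with 10 promoters in all, and 4 of those 10 held the motif. All 4 belonged to the SoxD genes SOX5 and SOX6 and none to SOX2, SOX4, SOX12 or SOX13. Most of the 4 were alternative starts of SOX6, so the count is of promoters and not of genes. The longer motif AACAAAG, on both strands, was in 5.20% of promoters and in 1 member promoter, of SOX6. SOX8, SOX9, SOX11 and SOX15 have no entry in the table. The stretches below are shown for SOX5 and for 1 of the SOX6 starts, both on the minus strand and given 5′ to 3′ in the direction of the gene, with the motif in capitals.
SOX5: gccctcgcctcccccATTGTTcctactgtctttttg
SOX6: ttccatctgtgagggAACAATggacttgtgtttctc

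They lie at chr12:24562650-24562685 for SOX5 and chr11:16402958-16402993 for SOX6 (GRCh38), with the first base of the motif 179 and 115 bases before the start. A match of 6 letters is a description of these windows and not a bound site.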

How the data were processed

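RNA-seq of 3 WT libraries of 22Rv1 cells was analysed. The authors aligned the paired reads with HISAT2 (GRCh37, GENCODE gene models), obtained gene counts from HTSeq and scaled these by DESeq2. Each deposited value is therefore a signal: a gene's count over the size factor of its library. The GENCODE release and the strandedness are not given in the sources used here. Levels are reported in the deposited unit, and tests used recovered reads. These came out whole for 100% of values within the rounding of the files, 0.05 normalized counts plus 1e-06 of the value. Of 29000 rows, 1976 that repeated a neighbouring row in every library were merged, which removed 10.6% to 10.7% of reads. Symbols matched 86.1% of row identifiers.

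Library sizes were scaled by TMM (edgeR 4.0.16, R 4.3.3) for CPM and for the chi-square test (scipy 1.17.1), which had a threshold of 0.05 after Benjamini-Hochberg adjustment. The test was checked on simulated counts that held counting error alone, so that check does not cover the larger spread between the WT libraries. Precision follows from the reads behind each gene, and intervals cover counting error only. Genes were named by a rule that took every listed member, the other SOX genes, lists of partners, targets and cell type markers, and overlapping genes. The values of 1 listed gene are not reported here. Members and lists were chosen with earlier results of these data known. The alternatives were other scalings, minimums, lengths and dispersions, and leaving out each library.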

Additional observations from a re-analysis of the deposited data

How the results depend on the processing

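Of the 9 members tested 4 differed between the libraries by the chi-square test, against 41.9% of all genes. The number was 2 of 6 (43.6% of genes) with a minimum mean of 50 reads, 0 (0.416%) with the edgeR trended dispersion, 0 (3.47%) with the scaled chi-square, and between 0 and 3 (22.7% to 27.0%) when each library in turn was left out. It remained 4 with library totals alone, with DESeq2 1.42.0 size factors and with length and GC trends removed, and was 5 of 10 (39.1% of genes) with a minimum of 1 read, which admits SOX8. Keeping the repeated rows, an alternative chosen after seeing the data, also gave 4. The SoxC share of 51.3% was 56.2% with union exon lengths and 55.8% without lengths. With union lengths the ratios were 6.02 for SOX13 to SOX5, 228 for SOX13 to SOX6 and 37.8 for SOX5 to SOX6. Other scalings moved no member mean by more than 1.23%, while leaving out a library moved the mean of SOX2 from 8.40 to between 6.30 and 12.2 normalized counts, that of SOX8 from 1.33 to between 0 and 2.00, that of SOX11 from 15.3 to between 11.1 and 18.1, and those of the expressed members by at most 4.76%. Depth limits the precision of the 4 members below 1 CPM. The spread was 78.5% for SOX2, 48.4% for SOX11 and 173% for SOX8, above counting errors of 31.1%, 22.9% and 77.5%. What else adds to it was not tested. For SOX6, leaving out a library moved the mean from 17.8 to between 16.5 and 18.9 normalized counts. Counting error of SOX6 was 21.3%, above its spread of 13.1%. No paired analysis was possible because the only group analysed here was WT.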
